A study of Mus musculus with 74 samples.

Results

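Binding of the corepressor NCOR was compared between livers of Ppara KO mice and of their WT controls by chromatin immunoprecipitation with sequencing (ChIP-seq), in which DNA bound by a protein is recovered with an antibody and the sequenced fragments (tags) are counted over peaks. The comparison took in all 115042 peaks for which the authors counted NCOR tags in the Ppara line, with no selection on their values, and 6 of the 74 libraries of the series, 3 WT and 3 KO. The study asked which corepressor subunit restrains the nuclear receptor PPARα in mouse liver, and profiled GPS2, NCOR, PPARα and histone marks in mice that lacked Gps2, Ncor, Smrt or Ppara. All 6 libraries were made from whole liver of male mice, labelled C57BL/6, 8 to 12 weeks old and fed chow. The KO mice carry the whole-body null allele of the stock B6;129S4-Ppara tm1Gonz/J, so PPARα is absent from every cell type and throughout life. The origin of the WT controls of this line is not given in the sources used here, so genotype and any difference in strain background cannot be told apart. Chromatin was fixed with disuccinimidyl glutarate and then formaldehyde, and several immunoprecipitations were pooled for each library. The labels number the 3 libraries of a genotype without naming the mice behind each. The paper describes its replicates as biological and these libraries as biological triplicates. P-values here measure the spread between these libraries.

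NCOR (gene Ncor1) is the scaffold of a corepressor complex that holds the histone deacetylase HDAC3 with TBL1, TBLR1 and GPS2. It docks on nuclear receptors, including PPARα, through motifs that prefer the receptor without an activating ligand, and it is brought to chromatin by other transcription factors as well. PPARα binds as a heterodimer with RXR to direct repeats of the core AGGTCA with a spacer of 1 base (DR1), and in hepatocytes it drives fatty acid oxidation, peroxisomal metabolism and the fasting response.

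The sequences of 4 example peaks are printed, 2 where NCOR was lower in KO livers and 2 where it was higher, by less. Whether the sequence accounts for a difference was not tested. The lower pair are those among the 10 lower examples described further on that hold a DR1 match, and the higher pair, one with and one without a match, come from the 10 higher examples. They are read from the mm9 assembly, plus strand, 5′ to 3′, over 200 bases around the peak centre. Capitals mark each DR1 match, defined as AGGTCANAGGTCA on either strand with at most 1 mismatch.

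Pla2g4b: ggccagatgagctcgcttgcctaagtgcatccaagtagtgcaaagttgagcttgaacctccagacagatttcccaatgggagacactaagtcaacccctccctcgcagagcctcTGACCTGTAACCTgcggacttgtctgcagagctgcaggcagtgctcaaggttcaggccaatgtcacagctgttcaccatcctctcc
Cbfa2t3: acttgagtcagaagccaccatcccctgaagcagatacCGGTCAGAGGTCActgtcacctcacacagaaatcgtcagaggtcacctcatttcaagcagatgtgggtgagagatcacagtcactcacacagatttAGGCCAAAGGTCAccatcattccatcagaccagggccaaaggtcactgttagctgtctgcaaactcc
Kcns1: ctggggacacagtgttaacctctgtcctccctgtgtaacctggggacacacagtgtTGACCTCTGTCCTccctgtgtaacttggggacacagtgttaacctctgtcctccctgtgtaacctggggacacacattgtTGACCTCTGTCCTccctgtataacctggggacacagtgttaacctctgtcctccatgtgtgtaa
Elmo1: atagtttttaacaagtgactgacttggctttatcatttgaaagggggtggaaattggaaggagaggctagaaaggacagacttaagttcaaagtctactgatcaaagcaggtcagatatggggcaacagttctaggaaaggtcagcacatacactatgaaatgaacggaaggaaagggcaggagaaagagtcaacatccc

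The first, chr2:119884682-119884881, lies 25613 bp downstream of the transcription start site (TSS) of Pla2g4b, which encodes a cytosolic phospholipase A2. The second, chr8:125219446-125219645, lies 3463 bp downstream of the TSS of Cbfa2t3, itself a corepressor of the ETO family, and holds 2 DR1 matches and the core AGGTCA 4 times over both strands. NCOR was lower in KO livers at both. The peak chr2:163957391-163957590 is nearest to Kcns1, a modulatory potassium channel subunit, and chr13:20651634-20651833 to Elmo1, an adaptor in Rac activation, and NCOR was higher in KO livers at both. The Kcns1 sequence holds 2 DR1 matches, within a repeated stretch, and the Elmo1 sequence holds none. A match of this kind was found in 2454 peaks (2.13% of all), and it describes letters, not binding.

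The genotype labels were checked with the PPARα libraries of the same line, 2 per genotype. In WT livers 2.14% and 2.44% of the PPARα tags fell in the PPARα peaks, and in KO livers 0.652% and 0.581% (exact permutation test, two-sided p = 0.33, the smallest that 2 against 2 libraries allow). The authors called 8975 and 11274 PPARα peaks in the WT libraries against 131 and 92 in the KO libraries, so the PPARα signal was lost in the mice labelled KO.

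The NCOR libraries held 11.6 to 14.9 M tags. Levels are given as normalised tags, which are tags per 10000000 total tags of the library. The share of tags that fell in the NCOR peaks was 24.5, 23.6 and 27.5% in WT livers and 22.2, 23.5 and 17.2% in KO livers. WT replicate 3 stood highest and KO replicate 3 lowest, and the groups did not overlap (25.2 ± 2.05% against 21.0 ± 3.33%, SD, n = 3 each; exact permutation test, two-sided p = 0.1, the smallest this design allows). Because of this gap the calls are given with 2 scalings. Scaling to the total tags of each library keeps a library-wide difference as a difference in NCOR, and scaling by TMM factors, computed over the peaks, sets the bulk of the peaks equal between libraries. The median log2 difference, KO minus WT, over all peaks was -0.32 with total tags and -0.02 with TMM, and whether fewer NCOR tags in peaks reflect NCOR or the quality of an immunoprecipitation was not tested.

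With total tags, NCOR fell at 2885 of the 115042 peaks (2.51%) in KO livers and rose at 157 (0.136%), by edgeR's quasi-likelihood test at an adjusted p of 0.05 over all peaks. With TMM it fell at 1206 peaks (1.05%) and rose at 873 (0.759%). Lower peaks made up 94.8% of the calls under the first scaling and 58.0% under the second. All 1206 peaks called lower with TMM were also lower with total tags, and all 157 called higher with total tags were also higher with TMM. No peak was called in opposite directions. Both fits use the same counts and differ in scaling alone, so one is not independent support for the other. Lower under both scalings therefore names the peaks lower with TMM, and higher under both those higher with total tags. The scaling thus decided 1679 peaks that were lower with total tags alone and 716 that were higher with TMM alone.

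**Figure D1:**
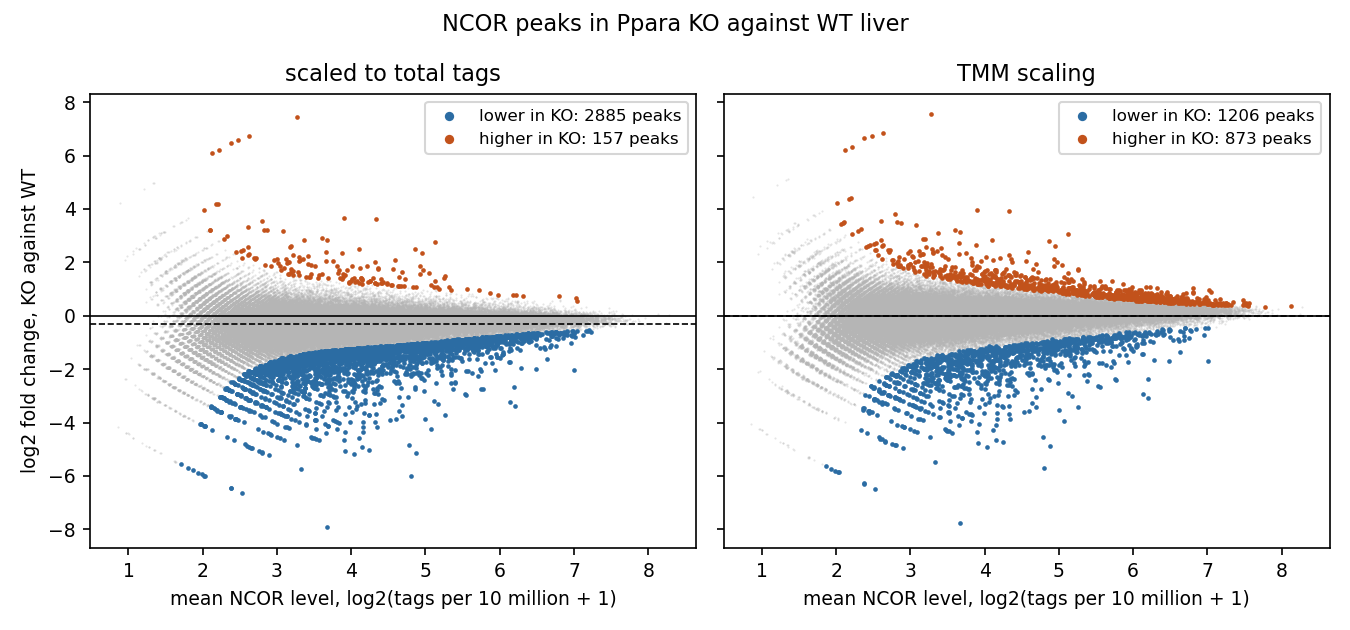
Log2 difference in NCOR (KO minus WT) at each of the 115042 peaks against its mean level, as log2 of normalised tags plus 1, with total tags and with TMM. Coloured points passed an adjusted p of 0.05 (2885 and 1206 lower, 157 and 873 higher), and the dashed line is the median of all peaks, which lies at -0.32 with total tags and -0.02 with TMM.

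The 1206 peaks that were lower under both scalings lost most of their NCOR. Their median was 26.8 normalised tags in WT livers and 6.36 in KO livers, a median log2 difference of -1.99 with total tags and -1.69 with TMM. Every KO library lay below every WT library at 1202 of them, against 18.8% of all peaks. They were nearest to 905 genes, of which 200 had more than 1 such peak. As a share of all NCOR tags in peaks they held 1.65, 1.69 and 1.77% in the WT libraries and 0.698, 0.645 and 0.621% in the KO libraries. WT replicate 3 was again the highest and KO replicate 3 the lowest, by small margins. The peaks were chosen by these same libraries, so the gap between the groups was fixed in advance.

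The 157 peaks that were higher under both scalings began from little NCOR. Their median was 6.37 normalised tags in WT livers and 20.5 in KO livers, a median log2 difference of 1.68 with total tags and 1.98 with TMM. The libraries did not overlap at 138 of them, against 1.97% of all peaks with KO above WT. They were nearest to 122 genes. The 873 peaks called higher with TMM were stronger, with a median of 29.8 normalised tags in WT livers and 47.2 in KO livers. A gene could have both kinds, and 50 genes had a lower and a higher peak with TMM.

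The comparison was repeated without the libraries that stood apart. Without KO replicate 3 the counts with total tags were 1408 lower and 175 higher, and without WT replicate 3 they were 1138 and 69. Of the 1206 peaks lower under both scalings, 1098 and 907 were called lower in these 2 comparisons, and 793 and 707 when they were fitted with TMM. Among all fits that left out a library, the one without KO replicate 2 and with TMM kept the fewest, 588. None of the 1206 or of the 157 changed sign under any setting tried. They were chosen as called in these same libraries, so a change of sign was unlikely from the outset.

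Peaks were then placed by PPARα. A PPARα site is here an NCOR peak that overlaps, by at least 1 base, a PPARα peak called in both WT PPARα libraries of the line. There were 6422 such sites. NCOR fell at 690 of them with total tags (10.7%) and rose at 4, and with TMM it fell at 421 (6.56%) and rose at 154 (2.40%). Among 41698 peaks that overlapped no WT PPARα peak from any line of the series, it fell at 465 and rose at 55 with total tags, and with TMM it fell at 108 (0.259%) and rose at 145 (0.348%).

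Of 6875 peaks in just 1 of the 2 WT PPARα lists of the line, 390 were lower (5.67%) and 1 higher with total tags, and 182 were lower (2.65%) and 71 higher (1.03%) with TMM. Of 60047 peaks found only in WT PPARα lists of the other lines, 1340 were lower (2.23%) and 97 higher (0.162%) with total tags, and 495 were lower (0.824%) and 503 higher (0.838%) with TMM. The percent lower lay between that of PPARα sites and that of peaks in no list under both scalings, and the percent higher did so with TMM only. PPARα sites made up 5.58% of all peaks and 34.9% of the peaks lower under both scalings. Their share of the higher peaks depended on the scaling, at 2.55% with total tags and 17.6% with TMM.

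The PPARα sites as a whole were also set against the peaks with no PPARα peak. They held 19.9, 19.4 and 19.7% of all NCOR tags in peaks in the WT libraries and 20.1, 19.2 and 20.2% in the KO libraries, and these ranges overlap. Their mean level above the peaks with no PPARα peak, as log2 of normalised tags plus 1, was 3.10 ± 0.08 in WT and 3.08 ± 0.05 in KO livers (SD, n = 3 each), a difference of -0.02 (exact permutation test, two-sided p = 0.8, where 3 against 3 libraries cannot go below 0.1, so no difference could have passed). The sign of this difference turned when WT replicate 3 or KO replicate 2 was left out, and with a pseudocount of 5 in place of 1 it was -0.11. The median log2 difference per site was -0.25 with total tags and 0.05 with TMM.

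The percent of PPARα sites that fell differed with NCOR level. When all peaks were cut into 5 equal groups by mean NCOR level over the 6 libraries, these held, from the weakest to the strongest, 20, 62, 165, 625 and 5550 PPARα sites. The percent of these sites that fell with TMM was 10, 29.0, 37.6, 21.8 and 3.66, in the same order, and with total tags 30, 38.7, 50.9, 30.1 and 6.99. In the same groups 0.0358, 0.309, 0.483, 0.469 and 0.969% of the peaks with no PPARα peak fell with TMM. The median log2 difference with TMM at the PPARα sites was -1.52, -0.93, -1.02, -0.39 and 0.09, and at the peaks with no PPARα peak -0.29, -0.12, -0.09, -0.01 and 0.15. Most PPARα sites were among the strongest NCOR peaks, where few fell. The level averages both genotypes, so a site that loses NCOR moves towards a weaker group.

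**Figure D2:**
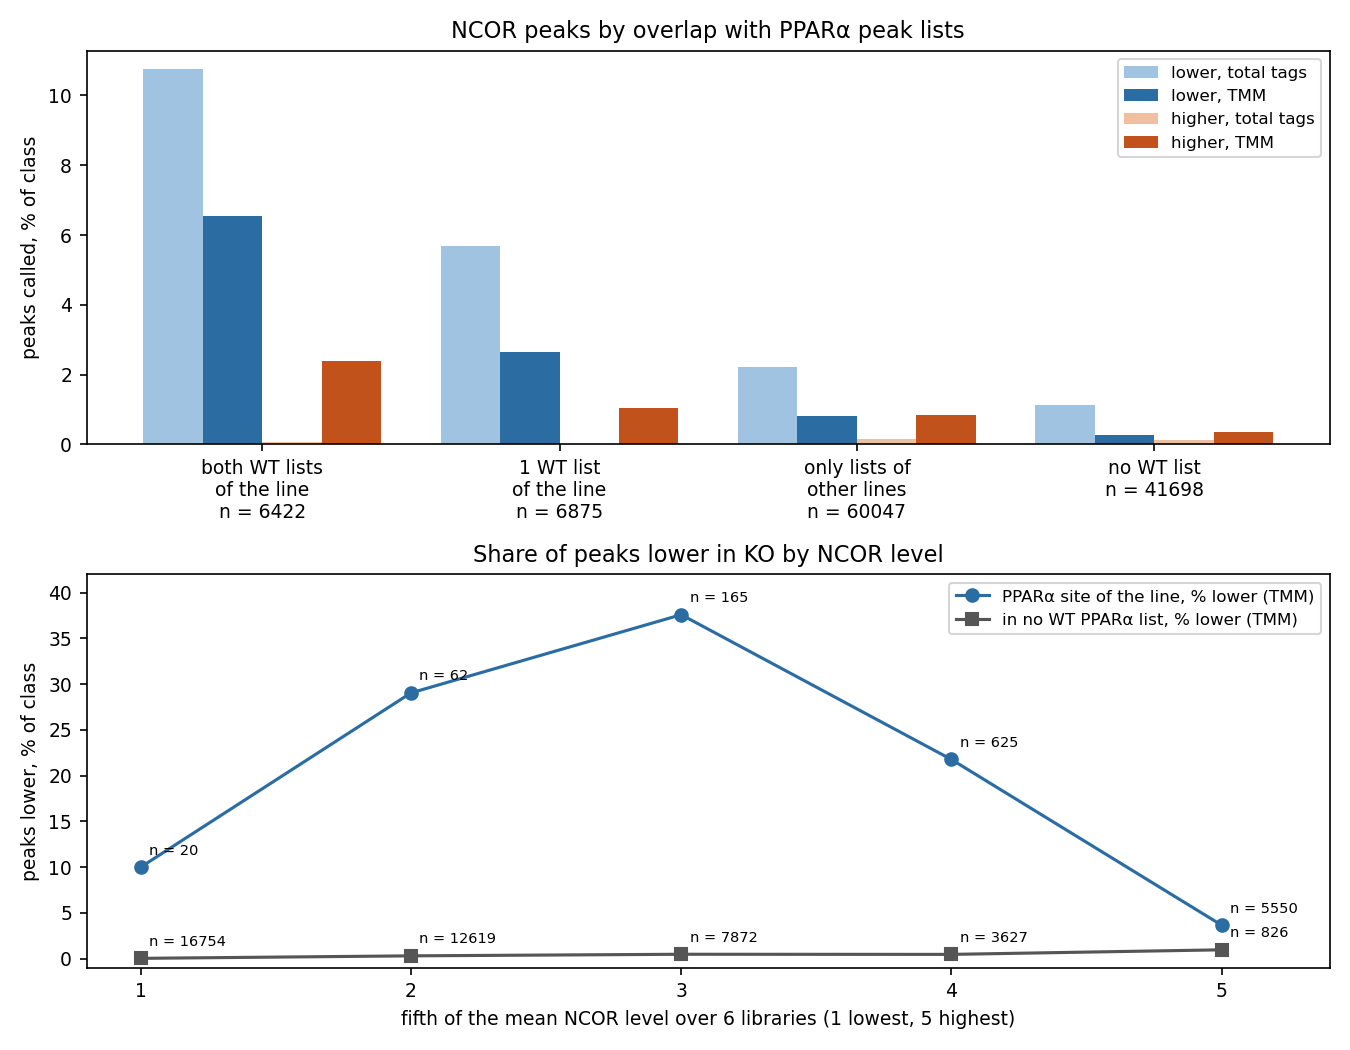
Top, percent of NCOR peaks called lower or higher in KO livers by overlap with WT PPARα peak lists, with total tags and with TMM; with TMM 6.56% of PPARα sites and 0.259% of peaks in no list are lower. Bottom, percent lower with TMM in 5 groups of mean NCOR level, for PPARα sites and peaks in no list; the PPARα sites reach 37.6% in the middle group and 3.66% in the strongest.

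The PPARα sites were also grouped by position and chromatin. These groups were not matched for NCOR level, with which the percent that fell also differed. Whether level accounts for differences between these groups was not tested. Of 597 PPARα sites within 1000 bp of a TSS, 2.18% fell and 3.18% rose with TMM, and 5.53% fell and none rose with total tags. Of the 1517 sites more than 50000 bp from a TSS, 8.57% fell with TMM and 12.99% with total tags. Histone marks were taken from the 2 WT libraries of each mark in the Gps2 line. At the 516 sites with neither H3K27ac, a mark of active enhancers and promoters, nor H3K4me3, a mark of promoters, in any of them, 15.9% fell with TMM and 26.2% with total tags. The shares were 6.37% and 10.1% of the 4036 sites with H3K27ac in both libraries but not H3K4me3 in both, and 3.01% and 5.72% of the 1627 sites with each mark in both libraries. Of the 4100 sites with a GPS2 peak in at least 2 of the 3 WT GPS2 lists 5.17% fell with TMM and 9.34% with total tags, and of the 2322 without one 9.0% and 13.2% fell.

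Over all NCOR peaks, within 1000 bp of a TSS, 36 of 21181 peaks were lower and 68 higher with TMM (0.170% and 0.321%), a balance that turned with total tags, at 132 lower and 9 higher (0.623% and 0.0425%). More than 50000 bp from a TSS, 388 of 27164 were lower and 262 higher with TMM (1.43% and 0.965%), and 897 and 64 with total tags (3.30% and 0.236%). By the authors' annotation, 592 of the lower peaks with TMM lay in introns, 533 between genes and 16 at promoters, and with total tags 1468, 1212 and 80.

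Sequence motifs were counted in the same 200 base windows, on both strands. DR1 matches were held by 2454 peaks, of which 33 were lower (1.34%) and 57 higher (2.32%) with TMM. With total tags the balance was the other way, with 78 lower (3.18%) and 5 higher (0.204%). Direct repeats with a spacer of 2 bases (DR2, AGGTCANNAGGTCA) were held by 951 peaks, of which 39 were lower (4.10%) and 9 higher with TMM, and 73 (7.68%) and 2 with total tags. Among PPARα sites with TMM, 13 of 290 with a DR1 match were lower and 15 higher, and 9 of 87 with a DR2 match were lower and none higher. With total tags the counts were 23 and 1, and 16 and 0. A window can hold both motifs, and a mismatch is allowed in each, so the groups share peaks.

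Strongly bound peaks served as examples on each side: among peaks called with total tags, with a mean of at least 50 tags and no overlap between the groups, the 10 with the lowest and the 10 with the highest log2 differences were taken, 1 per nearest gene. The nearest gene names a peak here and need not be its target. All 10 of the lower peaks carried a GPS2 peak, and 8 were PPARα sites. Of the 10 higher peaks, 2 carried a GPS2 peak and 2 were PPARα sites. Most PPARα sites were among the strongest NCOR peaks, and the shares over all peaks of at least 50 tags were not counted. The 2 of 10 can therefore not be called few or many. The lower peaks changed by 4.73-fold to 10.4-fold with total tags and by 3.82-fold to 8.51-fold with TMM. The 10 higher peaks changed less, by 1.58-fold to 2.10-fold and by 1.96-fold to 2.58-fold. The limit of 50 tags keeps out weak peaks. Over all 157 peaks higher under both scalings the median log2 difference was 1.68 with total tags and 1.98 with TMM. Over the 1206 lower peaks it was -1.99 and -1.69. All 10 lower peaks stayed called under both scalings whichever library was left out. The 10 higher peaks stayed called with TMM, but with total tags none was called without WT replicate 3 (log2 differences of 0.41 to 0.97), 1 without KO replicate 1, 2 without KO replicate 2, 3 without WT replicate 2 and 7 without WT replicate 1. Pairs of values in brackets below are log2 differences, KO minus WT, with total tags and with TMM.

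The largest loss among these examples was at an intergenic peak 205813 bp upstream of the TSS of Sall3, a zinc finger transcription factor. It held 128, 144 and 126 normalised NCOR tags in the WT libraries and 16.3, 16.2 and 5.69 in the KO libraries. The lowest WT library was far above the highest KO library, with a log2 difference of -3.38 ± 0.25 (SE; adjusted p = 2.96e-35) with total tags and -3.09 (adjusted p = 8.57e-13) with TMM. An intronic peak 13951 bp downstream of the TSS of Palb2, which encodes the partner of BRCA2 in DNA repair, held 126, 108 and 142 in WT against 18.0, 13.5 and 8.54 in KO livers. Its log2 difference was -3.24 with total tags and -2.94 with TMM. GPS2 at the Palb2 peak was 23.6, 26.0 and 50.8 normalised tags in WT against 2.18, 0 and 0.721 in KO livers, a difference in the same direction that also passed the test.

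The Pla2g4b peak printed above held 111, 105 and 158 normalised tags in WT livers and 23.7, 16.8 and 18.5 in KO livers, a log2 difference of -2.67 with total tags and -2.36 with TMM. The peak of Epha2, a receptor tyrosine kinase for ephrins, held 86.2, 102 and 91.0 in WT against 11.4, 19.5 and 10.7 in KO livers. At both peaks the groups were well apart. Near Pnpla5, a patatin-like lipase, the WT libraries themselves were wide apart, at 71.5, 41.3 and 163 normalised tags. All lay above the KO values of 10.6, 12.1 and 18.5, which the choice of examples required. That peak was the only one of the 10 lower peaks that was a PPARα peak in no library of this line but in other lines.

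The remaining lower examples had log2 differences of -2.98 to -2.24 with total tags. They were nearest to Fam19a5, which encodes a secreted chemokine-like protein, the unannotated transcript 4930478L05Rik, Gpatch2l, Pmepa1, a membrane inhibitor of TGFβ signalling, and Cbfa2t3. At the Cbfa2t3 peak printed above the WT libraries held 84.5, 77.4 and 91.0 normalised tags and the KO libraries 18.0, 18.2 and 17.1, with little spread in either group.

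**Figure D3:**
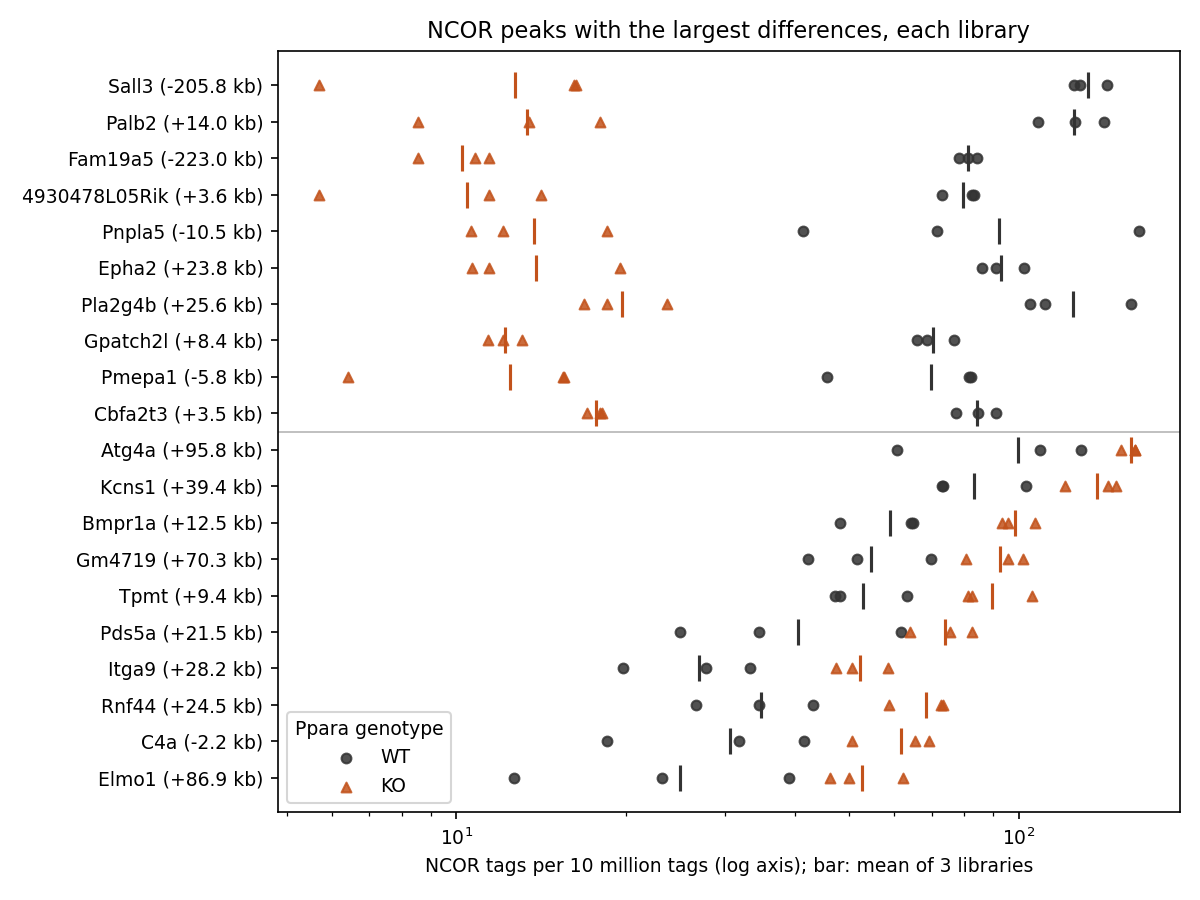
Normalised NCOR tags, on a log axis, in each library at the 10 lower and 10 higher example peaks, named by the nearest gene with its distance, with a bar at the mean of 3 libraries. The choice of peaks required WT and KO points to be separate. They lie far apart at Sall3, at 126 or more against 16.3 or less, and closer together at the higher peaks.

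Higher examples began with Elmo1. Its intronic peak, 86875 bp downstream of the TSS, held 39.0, 23.2 and 12.6 normalised tags in WT livers and 62.1, 49.8 and 46.3 in KO livers, a log2 difference of 1.07 ± 0.29 (adjusted p = 0.0136) with total tags and 1.37 (adjusted p = 0.00113) with TMM. WT replicate 3 was the lowest. That the groups did not overlap was a condition for choosing every example. Kcns1 held 103, 73.1 and 73.3 in WT against 144, 149 and 121 in KO livers (log2 difference 0.73 with total tags, 1.03 with TMM). Bmpr1a, a receptor for bone morphogenetic proteins, held 64.2, 48.2 and 64.9 against 95.6, 107 and 93.2 (0.74 and 1.06).

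The C4a peak, near a complement C4 gene, held 41.4, 31.8 and 18.5 normalised tags in WT livers and 65.4, 69.3 and 50.5 in KO livers. C4a has a near-identical copy, C4b, so its reads may be split between the copies and its value is uncertain. The other higher examples were nearest to Rnf44, Itga9, which encodes an integrin subunit, Pds5a, a cohesin regulator, Tpmt, thiopurine methyltransferase, Gm4719 and Atg4a, an autophagy protease. Their log2 differences were 0.66 to 0.97 with total tags and 0.97 to 1.30 with TMM. The WT libraries were uneven at Atg4a, at 129, 109 and 60.7, and at Pds5a, at 61.8, 24.9 and 34.5, where WT replicate 1 was higher than the others.

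A few peaks had no tag at all in a group. A peak 313770 bp upstream of Fam19a5 (chr15:87060872-87061046) held 25.2, 28.4 and 16.9 normalised tags in WT livers and 0 in each KO library, at least 32.2-fold lower when the KO group is set at a floor of 3 counts over its libraries. Near Trank1 (chr9:111232492-111232645) WT libraries held 0 and KO libraries 15.5, 14.8 and 0.712, at least 12.4-fold higher. KO replicate 3 was close to 0 at this peak and unlike the other KO libraries.

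The next question was what happened at genes known to be driven by PPARα, 71 genes in 5 lists, together with Ncor1 and Gps2. For each of these 73 genes the strongest NCOR peak within 20000 bp of the TSS was examined. With total tags 5 of the 73 were lower in KO livers (Abcd2, Acot4, Cyp4a14, Retsat and Vnn1) and none higher. With TMM, Abcd2, Cyp4a14 and Vnn1 were lower and Acadm and Creb3l3 higher. The median log2 difference was -0.26 with total tags and 0.04 with TMM, against -0.32 and -0.02 over all peaks. These counts stand beside 2.51% lower of all peaks with total tags and 1.05% with TMM.

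Vnn1, a pantetheinase and a classic PPARα target, lost NCOR at its strongest peak, 1517 bp upstream of the TSS, from 51.2, 36.1 and 80.04 normalised tags in WT livers to 20.4, 19.5 and 12.8 in KO livers. The log2 difference was -1.66 ± 0.30 (adjusted p = 1.05e-05) with total tags and -1.35 with TMM. Cyp4a14, a fatty acid omega-hydroxylase, held 102, 111 and 99.4 in WT against 64.6, 68.7 and 22.1 in KO livers (-1.01 and -0.74). KO replicate 3 was far below the other KO libraries there, and the groups did not overlap. The Cyp4a14 call with total tags held whichever library was left out, but with TMM it was lost without WT replicate 1 or KO replicate 3, and DESeq2 did not make it. Abcd2, a peroxisomal fatty acid transporter, held 50.4, 72.2 and 104 against 45.8, 45.1 and 19.9 (-1.04 and -0.74). The Abcd2 call was lost under both scalings when WT replicate 3 or KO replicate 3 was left out. With total tags, the call at the strongest Retsat peak was lost without WT replicate 1, WT replicate 3 or KO replicate 1, and that at Acot4 was lost whichever library was left out.

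The strongest peaks of most canonical targets were not called. Cpt1a, the gate of mitochondrial fatty acid import, held 131, 110.1 and 119.6 normalised tags in WT livers and 137, 139 and 107 in KO livers (log2 difference 0.08 with total tags, 0.39 with TMM). Fgf21, a hepatic fasting hormone, held 63.4, 48.2 and 77.5 against 57.2, 64.6 and 54.1 (-0.10 and 0.21). Neither passed the test under either scaling, and the ranges overlapped. Plin2, a lipid droplet coat protein, held 86.2, 86.9 and 108 against 83.4, 86.2 and 72.6 (-0.21 and 0.10). Angptl4, an inhibitor of lipoprotein lipase, held 87.8, 79.1 and 73.3 against 85.8, 91.6 and 71.9 (0.05 and 0.36), and neither gene's peak was called.

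Going the other way, Creb3l3, a liver transcription factor of the fasting response, held 65.0, 54.2 and 90.2 normalised tags in WT against 105, 108 and 98.9 in KO livers. It was called with TMM (log2 difference 0.89, adjusted p = 1.52e-04) and not with total tags (0.57, adjusted p = 0.0989). Acadm, the medium-chain acyl-CoA dehydrogenase, held 67.5, 77.4 and 98.6 against 99.7, 113 and 78.3, where the ranges overlapped, and its log2 difference was 0.57 with TMM and 0.26 with total tags.

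Weaker peaks of the same genes were then counted. Over all 486 peaks nearest to the target genes within that distance, 45 fell and 1 rose with total tags, and 27 fell and 8 rose with TMM, where 2.51% and 0.136% of all peaks fell and rose with total tags and 1.05% and 0.759% with TMM. Among the 98 of these peaks that were PPARα sites, 19 fell with total tags and 15 with TMM, while 2 rose with TMM, beside 10.7%, 6.56% and 2.40% of all PPARα sites. Of the 71 genes, 16 had at least 1 peak lower under both scalings, as did 905 of the 18368 genes nearest to any peak at any distance. A peak higher with TMM was found at 6 of the 71 and at 685 of the 18368. Of the 71, Pdk4 alone had both kinds.

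Pdk4, the kinase that shuts off pyruvate dehydrogenase in fasting, showed the range within a single locus. Its promoter peak, 180 bp upstream of the TSS, held 99.97, 115 and 108 normalised tags in WT livers and 112, 109 and 66.2 in KO livers and was not called (-0.17 with total tags and 0.12 with TMM). At 2688 bp upstream, NCOR was 92.7, 85.1 and 96.9 normalised tags in WT livers and 44.1, 31.6 and 19.2 in KO livers (log2 difference -1.54 with total tags, adjusted p = 7.45e-08, and -1.25 with TMM). At 13615 bp upstream it was 32.5, 45.6 and 37.9 against 6.54, 6.73 and 7.83 (-2.44 and -2.13). Both upstream peaks were PPARα sites. Pdk4 had 3 peaks that were higher with TMM only. The one 260 bp downstream of the TSS held 8.94, 6.02 and 13.48 against 22.1, 22.9 and 13.52 (1.03 and 1.33), and the one 9133 bp downstream 4.06, 2.58 and 2.53 against 8.17, 14.8 and 4.98 (1.58 and 1.86), both with every KO library above every WT library, by a narrow margin at the first. The strongest, 11069 bp downstream, held 87.8, 45.6 and 115 against 103, 105 and 105 (0.33 and 0.66), and there the groups overlapped.

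Eci1, an enoyl-CoA isomerase of mitochondrial β-oxidation, lost NCOR at a PPARα site 2522 bp downstream of its TSS, where it was 25.2, 25.8 and 29.5 normalised tags in WT livers and 3.27, 2.02 and 2.13 in KO livers (-3.41 with total tags, adjusted p = 1.74e-10, and -3.11 with TMM). Ehhadh, the peroxisomal bifunctional enzyme, lost NCOR at a PPARα site 5758 bp downstream, from 45.5, 53.3 and 53.9 to 8.17, 13.5 and 12.1 (-2.15 and -1.84), while its strongest peak was not called (-0.21 and 0.10). Vnn1 had another such site 9530 bp upstream, at 56.9, 60.2 and 53.1 against 13.9, 19.5 and 13.5. At these sites every KO library was below every WT library.

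**Figure D4:**
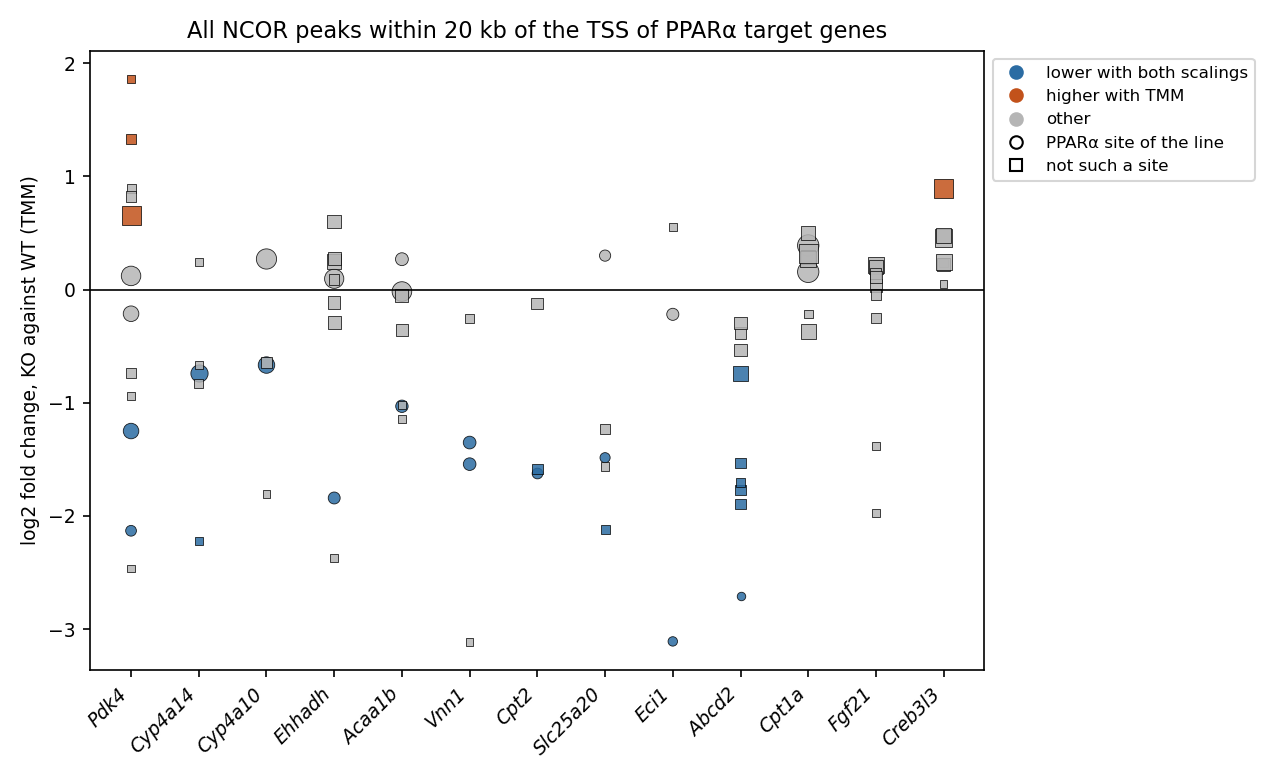
Log2 difference in NCOR (KO minus WT, TMM) at every peak within 20000 bp of the TSS of 13 PPARα target genes, each point a peak, larger where NCOR is stronger, circles at PPARα sites, coloured where lower under both scalings or higher with TMM. Pdk4 has peaks from well below to well above zero, all called peaks of Vnn1, Cpt2 and Abcd2 are lower, and the called peak of Creb3l3 is higher (0.89).

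The Ppara gene was itself bound by NCOR. Its strongest peak, 2771 bp upstream of the TSS, held 161, 173 and 165 normalised tags in WT livers and 128, 144 and 93.2 in KO livers. All KO libraries were below all WT libraries, but the difference did not pass the test (log2 difference -0.45, adjusted p = 0.126 with total tags). A weak peak 14445 bp downstream of the TSS, which overlapped no PPARα peak, went from 3.25, 2.58 and 3.37 to 20.4, 15.5 and 7.83 (2.20, adjusted p = 9.19e-04 with total tags, and 2.48 with TMM). It was the only target gene peak higher with total tags. The corepressor genes Ncor1, at 90.2, 84.3 and 111 against 99.7, 81.5 and 69.7, and Gps2, at 7.31, 9.46 and 5.06 against 5.72, 9.42 and 4.98, were not called.

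Tags were also summed per gene over all peaks within 10000 bp of its TSS, which gave 15389 loci. NCOR fell at 432 loci (2.81%) and rose at 17 (0.11%) with total tags, and fell at 204 (1.33%) and rose at 182 (1.18%) with TMM. Over the 71 PPARα targets, 9 loci fell and none rose with total tags, and 7 fell and 2 rose with TMM, with a median log2 difference of -0.33 and -0.04 beside -0.29 and -0.00051 over all loci. Without WT replicate 3, 5 of the 9 lower loci were called with total tags, and Acot8, Cd36, Eci1 and Retsat were not.

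By role, mitochondrial β-oxidation and ketone body genes had 3 of 17 loci lower under both scalings. They were Cpt2, which acts after Cpt1a in fatty acid import (96.7, 105 and 103 normalised tags in WT, 46.6, 39.7 and 42.7 in KO livers), Slc25a20, the carnitine-acylcarnitine carrier (97.5, 113 and 111 against 51.5, 51.2 and 39.1), and Eci1. The log2 differences were -1.24, -1.18 and -0.98 with total tags and -0.94, -0.89 and -0.69 with TMM. Peroxisomal β-oxidation had 2 of 13 lower, Abcd2 and the thioesterase Acot8. Microsomal hydroxylation and thioesterases had 1 of 9, Cyp4a14. Regulators and hormones had Vnn1 lower under both scalings, Retsat, a retinol saturase, lower with total tags only, and Creb3l3 higher with TMM only, of 15. Uptake, storage and lipoproteins had Cd36, the fatty acid translocase, lower with total tags only and Apoa1 higher with TMM only, of 17.

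Lists of other liver functions mostly had no call with total tags. None of the loci of acute phase and complement genes (27 measured), bile acid synthesis and transport (15), cholesterol synthesis (17), the circadian clock (20), glucose production and glycolysis (20), NF-κB and AP-1 response (21), hepatocyte transcription factors and nuclear receptors (24) or the NCOR complex (6) was called with total tags, and at most 1 of each list was called with TMM. Single higher calls with TMM were small, such as Nr0b2, the repressor SHP of bile acid synthesis, at 379.6, 342 and 433 in WT against 432, 403 and 349 in KO livers, where the ranges overlapped (0.34). Of 15 genes of amino acid synthesis and ATF4 stress, Psat1, of serine synthesis, was lower under both scalings, a call lost with total tags without WT replicate 1, WT replicate 3 or KO replicate 1. DESeq2 did not call Psat1 (adjusted p = 0.310). Of 20 targets of the xenobiotic receptors CAR and PXR, Cyp2b9, Cyp2b10 and Cyp2b13 were lower with total tags, and with TMM Cyp2b9 was lower and Gsta1 higher. Without WT replicate 3 none of the 20 was lower with total tags (Cyp2b9 -0.70, adjusted p = 0.305). Lipogenesis genes had Scd2, Abca1 and Pnpla3 lower with total tags and Scd2 and Abca1 with TMM, of 25, and Fasn higher with TMM. None of the 25 was lower with total tags without WT replicate 1, WT replicate 3 or KO replicate 1, and DESeq2 called none.

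Genes of female-biased liver expression had the most lower loci of any list outside the PPARα targets, 7 of 20 with total tags and 4 lower and 1 higher with TMM. Cyp2a4 held 76.4, 95.5 and 163 normalised tags in WT against 46.6, 53.9 and 47.7 in KO livers, Cyp2b9 57.7, 53.3 and 114 against 36.0, 37.7 and 28.5, and Cux2, a repressor of male-biased genes, 18.7, 33.5 and 60.7 against 19.6, 12.1 and 12.1. In all 3 WT replicate 3 was far above the other WT libraries. Without WT replicate 3, 1 of the 20 was lower with total tags. Abcd2 belongs to this list and to the PPARα targets, and the Cyp2 genes sit in clusters of near-identical copies, so their tags are uncertain. Among 20 male-biased genes none was lower, Cyp2d9 was higher with TMM only (0.35), and Moxd1, a monooxygenase-like enzyme, was higher under both scalings, at 76.8, 107 and 57.6 in KO against 14.6, 37.8 and 0 in WT livers (2.21 with total tags and 2.48 with TMM), but DESeq2 did not call it (adjusted p = 0.722). The 12 peaks on chromosome Y held 99.97 to 134 normalised tags in WT and 72.6 to 95.6 in KO libraries, so each library carried chromosome Y signal and the KO libraries held less of it.

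Loci of markers of the cells of the liver were also summed. The 10 endothelial markers held 642 to 692 normalised tags together in the WT libraries and 297 to 516 in the KO libraries, and Stab2, a scavenger receptor of sinusoidal cells, and Erg, an endothelial transcription factor, were lower with total tags, and Stab2 with TMM. The median log2 difference over the 10 was -0.64 with total tags and -0.37 with TMM, beside -0.29 and -0.00051 over all loci. Without WT replicate 2 none of the 10 was lower with total tags, and without KO replicate 2 there were 6. The 9 hepatocyte markers with a locus held 1894 to 2362 in WT and 1580 to 2045 in KO livers, and these ranges overlapped. Only 2 of 10 Kupffer cell, 2 of 10 lymphocyte, 2 of 10 stellate cell and 4 of 8 cholangiocyte markers had a locus at all, and of these Pdgfrb was lower with total tags. NCOR at a gene is not its expression, and in whole liver fewer cells of a type and less NCOR per cell cannot be told apart. Their part in the lower peaks was not tested.

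Some genes held several changed peaks. Esrrg, an orphan nuclear receptor, had 11 of its 37 peaks lower under both scalings, Fam19a5 7 of 11, Abcd2 6 of 18, Celf2, an RNA-binding protein, 6 of 35, Efna5, an ephrin, 6 of 19 and Sall3 6 of 14. On the higher side Chl1, a cell adhesion molecule, had 5 of 8 peaks and Rnase2a 4 of 7 higher, all of them under both scalings. Capn8, a calpain, had 6 of 16 higher with TMM. Peaks of a gene lie in the same region and are not independent.

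GPS2 tags were compared as a further readout of the corepressor complex, in the GPS2 libraries of the same line, 3 per genotype. Over 27842 GPS2 peaks, GPS2 fell at 76 (0.273%) and rose at 0 (0%) with total tags, where 6403 were lower and 7 higher at an unadjusted p of 0.05, and it fell at 27 (0.097%) and rose at 15 (0.0539%) with TMM. The share of GPS2 tags in peaks was 2.55, 2.42 and 4.39% in WT livers and 2.06, 1.87 and 1.07% in KO livers, so the GPS2 libraries held few tags in peaks and differed in the same direction as those of NCOR.

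GPS2 was then read at the NCOR peaks. Of the 1206 peaks where NCOR was lower under both scalings 52.3% overlapped a GPS2 peak, against 24% of all NCOR peaks. The share was 3.82% of the 157 peaks higher under both scalings and 29.0% of the 873 higher with TMM. It was 86.1% of all PPARα sites and 86.6% of the PPARα sites that were not lower under both scalings. Because PPARα sites were more frequent among the lower peaks than among all peaks, the 52.3% cannot be read apart from PPARα overlap. The 621 GPS2 peaks at the 1206 lower peaks had a median log2 difference in GPS2 of -1.82 with total tags and -0.85 with TMM, and 95.8% were below zero with TMM. Over the 25730 GPS2 peaks that overlapped any NCOR peak the medians were -0.95 and -0.01, with 50.6% below zero. At PPARα sites where NCOR was not called lower, the median was -0.14 with TMM. These GPS2 values were not used to choose the peaks, but overlap was counted with peaks of both genotypes. Where a PPARα peak overlapped, the median PPARα level at the 1206 peaks was 9.30 normalised tags in WT and 1.08 in KO livers, against 3.65 and 1.37 over all NCOR peaks.

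Finally, peaks were placed by distance from the Ppara gene itself, which lies on chromosome 15 (85565413 to 85633249, plus strand, mm9). Within 5 Mb of it, 23 of 748 peaks were lower and 20 higher with TMM (3.07% and 2.67%), and 42 and 6 with total tags. From 5 to 10 Mb the counts with TMM were 18 and 7 of 739, from 10 to 20 Mb 22 and 3 of 1167, and further away 21 and 19 of 2326 (0.903% and 0.817%), and with total tags 35 and 2, 48 and 0, and 59 and 3. On the 19 other chromosomes 0.439 to 1.25% of peaks were lower (median 1.01%) and 0.390 to 1.04% higher (median 0.714%) with TMM. Under both scalings the share called within 5 Mb of the targeted gene was larger than on any of the 19 other chromosomes, in both directions. Those are shares of whole chromosomes, which vary less than small windows, and windows of like size elsewhere were not examined. The window was also chosen after its values were seen. The Fam19a5 and Pnpla5 examples lie within 5 Mb of Ppara and Abcd2 within 10 Mb. Genotype at Ppara and the strain of the DNA around it cannot be told apart.

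**Figure D5:**
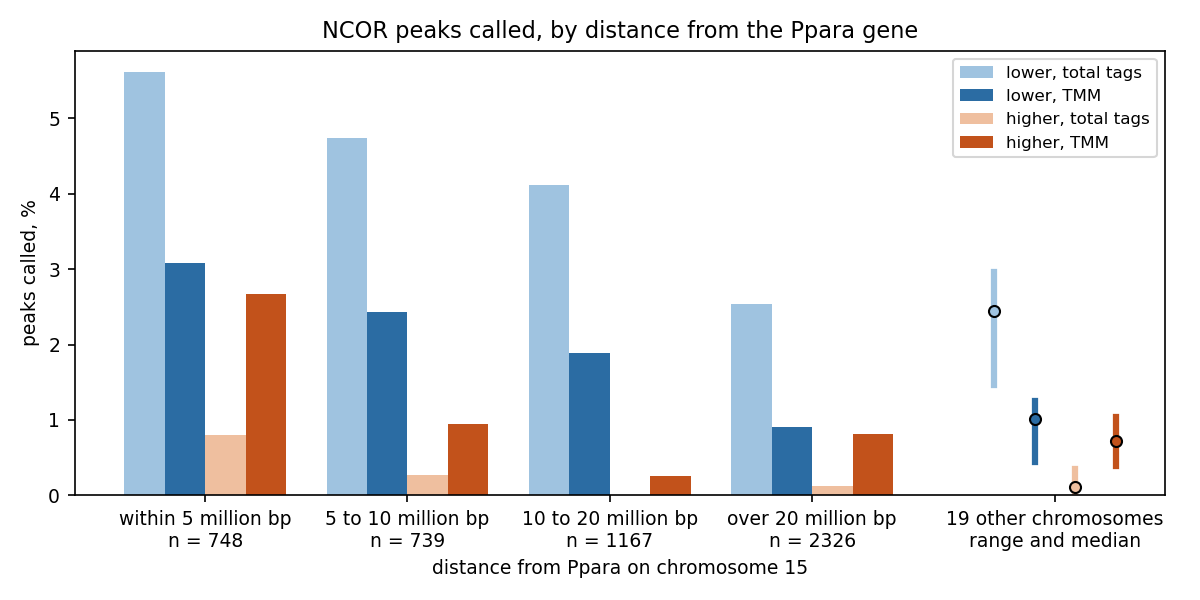
Bars show the percent of NCOR peaks called lower or higher in KO livers, with total tags and with TMM, in 4 ranges of distance from the Ppara gene on chromosome 15, and lines with points show the range and median of the 19 other chromosomes. Within 5 Mb 3.07% of peaks are lower and 2.67% higher with TMM, and over 20 Mb away 0.903% and 0.817%.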

How the data were processed

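NCOR, GPS2 and PPARα ChIP-seq libraries of the Ppara line were used, 3, 3 and 2 per genotype. The authors aligned reads to mm9 (Bowtie2 and HOMER are named in the submitters’ processing notes, versions not given in the sources used here), called peaks with HOMER, merged the peaks of an antibody's libraries and deposited raw tag counts per peak with the total tags of each library, plus peak lists with a score, from which only positions were taken. Counts were tested with edgeR 4.0.16 (quasi-likelihood, R 4.3.3), scaled to total tags or with TMM factors, with Benjamini-Hochberg adjusted p over all peaks, loci or GPS2 peaks. Levels are tags per 10000000 total tags. Peaks were matched by an overlap of at least 1 base (bedtools 2.31.1), and the nearest TSS is the authors' annotation. Single values used exact permutation tests over libraries. Genotype and replicate came from the labels, no per-sample column was left out (0 unused), and counting precision rests on 11.6 to 14.9 M tags per NCOR library.

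The genes named were the strongest peak of each PPARα target gene within 20000 bp of its TSS, the 10 lowest and 10 highest log2 differences among called peaks with a mean of at least 50 tags and groups that do not overlap, and the called loci of each of the other lists of 24 in all, at most 4 per list. Weaker peaks of target genes, peaks with a group at 0, genes with several called peaks and windows around Ppara were singled out after their values were seen. The members and lists were chosen with earlier results of these data known. Alternatives were other scalings, DESeq2 1.42.0, filters, other distances, a replicate block and leaving out each library. The fits were tested on simulated data. The mean chi-square per peak between NCOR libraries of a genotype was 1.33 to 2.54, above the value of 1 of sampling noise, so no 2 libraries were taken for copies of one library, which does not show that they came from separate mice.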

Additional observations from a re-analysis of the deposited data

How the results depend on the processing

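NCOR peaks lower in KO livers numbered 2885 with total tags, 1206 with TMM, 1360 when scaled to tags in peaks, 452 with DESeq2, 1048 with DESeq2 and total tags, 1867 with a replicate block and 1138 to 2749 when a library was left out. Higher peaks numbered 157, and 873 with TMM, 687 scaled to tags in peaks, 35 with DESeq2 and total tags, 2483 with the replicate block and TMM, and 61 to 175 when a library was left out. With TMM, the 1206 lower and 873 higher peaks became 2381 and 2483 with the replicate block. With TMM and a library left out they became 681 and 406 (WT replicate 1), 1494 and 1283 (WT replicate 2), 770 and 466 (WT replicate 3), 786 and 449 (KO replicate 1), 615 and 631 (KO replicate 2) and 845 and 374 (KO replicate 3). Lower loci (432) numbered 204 with TMM, 141 within 2000 bp, 882 within 50000 bp, 102 with DESeq2, 200 with the block and 162 to 905 without a library, and higher loci (17) numbered 182, 9, 27, 52, 11 and 7 to 29 under the same settings. GPS2 lower peaks (76) numbered 27 with TMM, 0 with the block and 2 to 68 without a library, and 15 GPS2 peaks were higher with TMM against 0. DESeq2 called 452 of the 1206 peaks lower under both scalings. The difference of PPARα sites from peaks with no PPARα peak (-0.02) was 0.049 for peaks in at least 2 of 8 WT PPARα libraries (exact permutation p = 0.3), 0.021 without WT replicate 3, 0.0052 without KO replicate 2, -0.11 with a pseudocount of 5 (p = 0.2), -0.063 for peaks with a mean of at least 20 tags, and ranged from -0.061 to 0.021 when a library was left out. The causes of these changes were not tested. Deviations of same-numbered WT and KO libraries correlated at -0.02, 0.30 and 0.34, and those of differently numbered libraries at -0.38 to 0.15. The labels do not say that the numbers pair libraries, so the main fits did not pair them. Whether libraries numbered 2 or 3 share a batch was not tested. A median of 14.2 tags per peak limits the calls at weak peaks, and peaks nearest to a gene need not act on it. PPARα sites made up 22.3 to 49.6% of the lower peaks over the settings tried and 0 to 27.6% of the higher ones.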
